A study of Mus musculus with 38 samples.

Results

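Livers of 5 male mice that lacked c-Met in hepatocytes and had received the carcinogen N-nitrosodiethylamine (DEN) were compared with normal liver RNA on 2-colour arrays. The livers are those whose labels give the knockout and the 5-month time point, and they account for 8 of the 38 arrays and 5 of the 20 mice in the series. The knockouts carried 1 Alb-Cre allele and 2 floxed Met alleles (Alb-Cre +/-; Met Fl/Fl), on a 129SV/C57BL6 background. Their controls carried Alb-Cre +/- with no floxed Met named in the label. All 20 mice had been given a single intraperitoneal dose of DEN, 10 µg per g of body weight, at 14 days of age. Livers were taken at a time the labels call 3 or 5 months, with 5 mice per genotype and time, and the labels give an age of 20 weeks for the 5-month mice and 12 weeks for the 3-month mice. The comparator on every array was 1 pool of liver RNA from 5 wild-type B6129 males, 12 weeks old, with no DEN in the label. DEN, age, genotype and strain label therefore all differ between the knockout livers and the pool and cannot be told apart in the comparison against it.

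c-Met is the receptor tyrosine kinase for hepatocyte growth factor, which mesenchymal cells of the liver release and which drives survival, motility and regeneration of hepatocytes. DEN is activated by cytochrome P450 enzymes, mainly in hepatocytes around the central vein, and the resulting DNA alkylation gives rise to liver tumours in male mice. Albumin-driven Cre acts in hepatocytes, so Met in endothelial, Kupffer and stellate cells is left intact, and whole liver RNA holds all of these. In such bulk RNA, fewer cells of a type and less RNA per cell cannot be told apart.

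Each value below is a log2 ratio of liver over the normal pool, with 0 meaning equal to the pool and 1 meaning a ratio of 2. It is a difference from the pool and not a level, so values of different genes do not rank their abundance. The labels do not name the numerator. The ratios were read with Cy5 on top, the likely choice, and if Cy3 were on top, all directions below would be turned around. Each mouse gave 1 value. Mice 1, 4 and 5 had an array in each dye orientation. Mouse 2 had 1 array, with the liver in Cy3, and mouse 3 had 1 array, with the liver in Cy5. Mice 1 and 2 belong to array run A and mice 3, 4 and 5 to array run B, a run being a stretch of neighbouring database experiment numbers in the labels, which do not say what the numbers mark. A probe was called where limma's adjusted p (Benjamini-Hochberg over 36607 probes) was under 0.05 and the means of both dye orientations had the sign of the mean over mice. Errors are SDs over the 5 mice.

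Of 36607 probes, 9366 (25.6%) were called against the pool, 3758 higher (10.3%) and 5608 lower (15.3%). Without centring each array on its median, 9766 were called, 5265 of them higher and 4501 lower, so the split between higher and lower depends on the centring. A change of at least 1 on the log2 scale was reached by 320 probes called higher (0.874%) and 277 called lower (0.757%). The 2 dye orientations agreed little. Across all probes the r between their means was 0.01, and 54.8% of probes had 1 sign in both. Where both means were at least 1 in size, 173 probes agreed in sign and 271 did not. The dye of each array is as its label gives it, and a wrong dye label would turn the sign of that array's values. Before turning, the 2 arrays of mice 1, 4 and 5 correlated at -0.15 to 0.18 over all probes, where opposite dyes give a negative r. Over the 300 probes with the largest means after turning, a choice that favours a negative r, it was -0.61 to -0.39. Only 736 probes (2.01%) were called in the liver-in-Cy5 arrays alone and again, in the same direction, in the liver-in-Cy3 arrays alone, 239 higher (0.653%) and 497 lower (1.36%). A further 73 were called in opposite directions. Genes that pass this stricter requirement, chosen after the values were seen, are named below as called in each orientation. The liver-in-Cy5 arrays alone gave 2376 calls and the liver-in-Cy3 arrays alone 13052. How many calls would coincide in direction by chance was not counted. All 736 probes are also among the 9366 and rest on the same arrays, so this mark is no separate support. The test is against a single pool, so the spread between normal livers does not enter it, and a low ratio does not show whether the liver is low or the pool high.

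**Figure D1:**
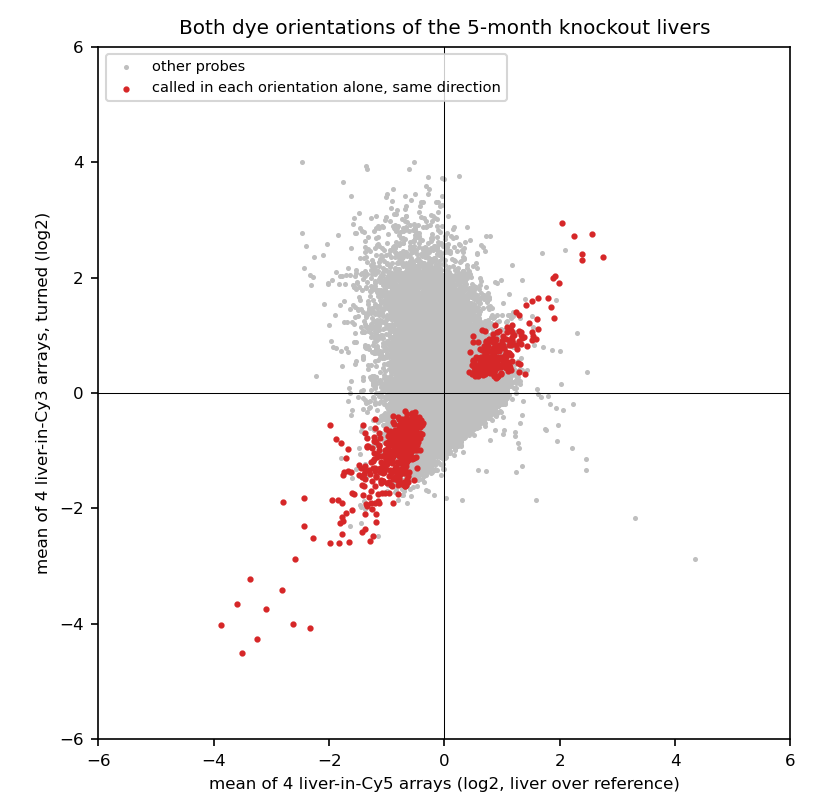
Each point is 1 of 36607 probes, with its mean log2 ratio of liver over the normal pool in the 4 liver-in-Cy5 arrays of the 5-month knockouts (x axis) and in the 4 liver-in-Cy3 arrays after turning the sign (y axis). The 736 probes in red were called in each orientation alone in the same direction, and over all probes r is 0.01.

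The deepest falls were in genes that other organs make. Tff2, a trefoil peptide of stomach mucus, was at -4.12, -3.40, -4.55, -4.19 and -3.72 in mice 1 to 5. All 5 livers were thus far below the pool, by 15.9-fold on average (-4.00 ± 0.44, n = 5, limma adjusted p = 1.02e-10). Prss2, a pancreatic trypsinogen, was at -3.92, -3.49, -4.65, -4.44 and -3.34, a mean of -3.97 ± 0.57. Acta1, the actin of skeletal muscle, was the least variable of these, at -2.90, -3.20, -3.29, -3.26 and -3.06. The other falls of this kind among the 15 largest were Krt13 (-3.67 ± 0.42), a keratin of stratified epithelium, the gastrokines Gkn3 (-3.54 ± 0.49) and Gkn2 (-2.20 ± 0.76), the pancreatic enzymes Cpb1 (-3.32 ± 0.38), Pnliprp1 (-2.77 ± 0.33), Try4 (-2.16 ± 0.24) and Ctrl (-2.11 ± 0.23), and Myh4 (-2.40 ± 0.59), a fast muscle myosin. S100g, a calcium-binding protein of intestine, was at -2.19 ± 0.66. Every one of these was called in each dye orientation. All but Acta1, Myh4 and S100g were below 0 in 20 of 20 mice of the series, and S100g was so in 19. Acta1 (1.15 and 1.32) and Myh4 (0.36 and 0.88) were above 0 in 3-month controls 2 and 4 and below 0 in the other 18 mice. A second Krt13 probe was at -1.09. In the 5-month controls the Tff2 mean was -4.23 and the Prss2 mean -3.15, and the knockout minus control differences of 0.23 (adjusted p = 0.832) and -0.81 (adjusted p = 0.557) did not pass. Trypsinogens are near-identical in sequence, so Prss2 and Try4 may share signal.

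Lists for the 3 organs were written after these values were seen. They include genes that prompted them, such as Prss2, Tff2 and Acta1. Their counts describe the pattern and are no separate support for it. Of 21 measured exocrine pancreas genes, 16 were called lower and none higher, against 15.3% of all probes called lower, with 9 in each orientation and a median of -1.17. Stomach genes gave 10 of 17 lower and none higher, 7 of them in each orientation, with a median of -0.97. Skeletal muscle genes gave 10 of 15 lower and none higher, 6 in each orientation, with a median of -1.01. The medians in the 5-month controls were -1.12, -0.56 and -0.62 for pancreas, stomach and muscle. In all 20 mice of the series, 14 of the 21 pancreas genes and 7 of the 17 stomach genes were below 0, and none of the 15 muscle genes was. The share of all probes below 0 in all 20 mice was not counted, so these counts have no background. The pool was the same on every array, and whether the pool or the livers set these ratios was not tested.

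**Figure D2:**
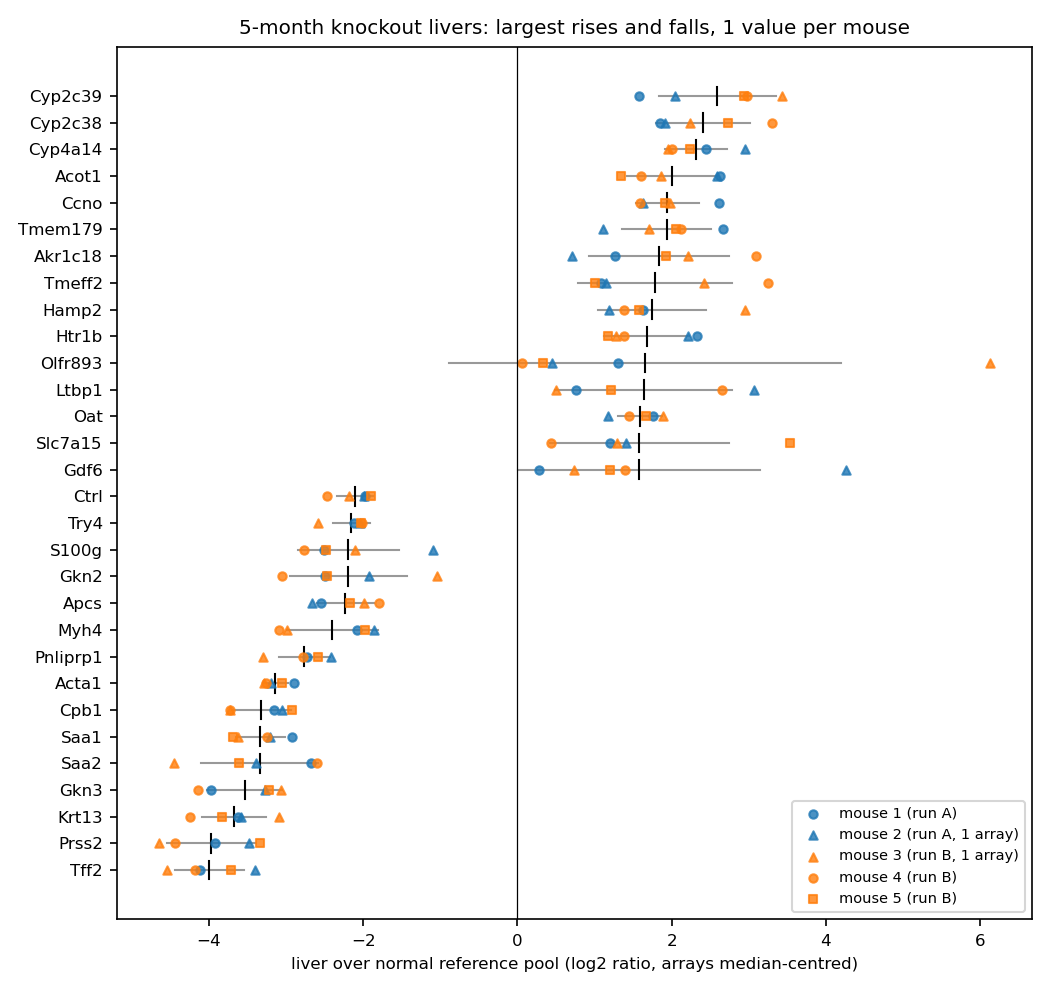
The 15 largest rises and 15 largest falls among called genes with all 5 mice on the same side of 0, as log2 ratio of liver over the normal pool (x axis). Points are single mice, vertical ticks their means and grey lines the mean ± SD. The falls have SDs of 0.16 to 0.76, while Olfr893 and Gdf6 each have 1 mouse far above the rest.

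Acute phase proteins, which hepatocytes secrete during inflammation, supplied 3 further genes of the 15 largest falls. Serum amyloid A genes Saa1 and Saa2 stand beside each other and are transcribed in opposite directions, and their promoters are shown because the pair moved together. The RefSeq promoters (GRCm38.p6) give 250 bases before the start of Saa1 at chr7:46742981-46743230 on the minus strand and of Saa2 at chr7:46751583-46751832 on the plus strand. Capitals mark the C/EBP-like letters TTGNGNAA on either strand, C/EBP being a class of factors that drive acute phase genes.
Saa1: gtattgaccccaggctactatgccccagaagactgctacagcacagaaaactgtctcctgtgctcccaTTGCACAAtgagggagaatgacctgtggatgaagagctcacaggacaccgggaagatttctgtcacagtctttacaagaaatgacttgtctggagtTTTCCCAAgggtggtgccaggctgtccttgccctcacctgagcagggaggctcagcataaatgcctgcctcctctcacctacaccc
Saa2: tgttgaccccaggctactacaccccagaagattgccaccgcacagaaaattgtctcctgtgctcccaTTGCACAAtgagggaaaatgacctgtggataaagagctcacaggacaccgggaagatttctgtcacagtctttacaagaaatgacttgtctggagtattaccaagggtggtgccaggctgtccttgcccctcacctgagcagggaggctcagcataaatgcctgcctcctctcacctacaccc
The letters occur at 2 places before Saa1 and at 1 before Saa2, and 11.7% of 32851 promoters of this length hold them at least once. Saa1 was at -2.92, -3.20, -3.63, -3.25 and -3.68 in mice 1 to 5, and Saa2 at -2.68, -3.39, -4.45, -2.59 and -3.62. Both means were -3.34 (SD 0.32 and 0.76), about 10.1-fold below the pool, with adjusted p = 2.85e-05 and 2.51e-05. The coding parts of these genes are near-identical, so their probes may share signal. Apcs, serum amyloid P, was at -2.23 ± 0.37. All 3 were called in each orientation.

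The same genes were uneven among the controls. Saa1 was at 0.34 and -1.44 in 5-month controls 1 and 2 and between -4.09 and -3.68 in controls 3, 4 and 5. Lcn2, an iron-scavenging protein of inflamed liver and neutrophils, was at 4.20 and 0.32 in controls 1 and 2 and at -2.53 to -1.25 in the others. In the knockouts Lcn2 was at -1.55, -1.58, -3.14, -1.74 and -1.75 (mean -1.95 ± 0.67). Saa3, made by macrophages and adipocytes, was at -1.26, -1.57, -4.08, -1.64 and -1.52, with mouse 3 far below the rest for both genes. Saa3 was at -2.01 ± 1.16 in the knockouts and -1.69 ± 1.66 in the controls. No knockout minus control difference for Saa1, Saa2, Saa3, Apcs or Lcn2 passed (adjusted p = 0.437 to 0.928). Of 39 measured acute phase, complement and coagulation genes, 11 were called lower and 2 higher (15.3% and 10.3% of all probes), with a median of -0.09, so the list as a whole sat near the median of all probes (0.04).

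Metallothioneins, small proteins that bind zinc and copper and rise with metal load, glucocorticoids and inflammation, fell together. Their RefSeq promoters (GRCm38.p6, plus strand) are chr8:94178839-94179088 for Mt1 and chr8:94172368-94172617 for Mt2, neighbours on the chromosome, and are shown for the metal response element they are known for. Capitals mark its core, TGCACNC or TGCGCNC, on either strand.
Mt1: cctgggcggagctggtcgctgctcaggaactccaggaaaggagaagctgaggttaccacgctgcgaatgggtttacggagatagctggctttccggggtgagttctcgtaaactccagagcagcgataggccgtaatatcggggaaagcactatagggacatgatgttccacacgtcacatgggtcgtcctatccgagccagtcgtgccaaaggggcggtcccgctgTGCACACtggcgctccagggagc
Mt2: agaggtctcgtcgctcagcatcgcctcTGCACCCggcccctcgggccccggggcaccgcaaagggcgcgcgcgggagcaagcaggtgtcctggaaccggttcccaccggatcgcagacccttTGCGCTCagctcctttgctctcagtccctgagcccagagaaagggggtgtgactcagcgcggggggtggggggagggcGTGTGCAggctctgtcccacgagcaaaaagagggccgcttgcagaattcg
There is 1 match in the stretch before Mt1 and there are 3 in that before Mt2, and 21.4% of the 32851 promoters hold at least 1. Bases after the annotated starts were not searched, so these counts do not compare the 2 genes' full sets of elements. Mt2 was at -1.36, -0.79, -2.56, -2.37 and -2.49, and Mt1 at -0.71, -0.57, -2.45, -2.36 and -2.27. The 3 mice of run B were lower than the 2 of run A for both genes, but the run difference did not pass (adjusted p = 0.999 for Mt2 and 0.888 for Mt1). Mean values were -1.91 ± 0.79 for Mt2 (adjusted p = 0.00505) and -1.67 ± 0.95 for Mt1 (adjusted p = 0.00489). Neither was called in each orientation alone. The controls spread from -2.28 to 2.49 for Mt2, with controls 1 and 2 again the high ones, and the genotype difference of -1.78 did not pass (adjusted p = 0.357).

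Cytochrome P450 enzymes of drug and steroid metabolism were the group with the most members above the pool. Of 31 measured xenobiotic P450 genes, 18 were called higher and 1 lower, against 10.3% and 15.3% of all probes, and 7 were higher in each orientation. The list median was 0.51, against 0.04 over all probes and -0.03 for the same list in the 5-month controls. At 3 months it was 0.70 in the knockouts and 0.63 in the controls, so a high median was not particular to the 5-month knockouts. For no member of the list did the 5-month knockout minus control difference pass. Cyp2c39, a retinoic acid hydroxylase, was the largest rise of all, at 1.57, 2.05, 3.43, 2.98 and 2.94. Mean Cyp2c39 was 2.59 ± 0.76 (6.04-fold, adjusted p = 5.07e-05), with means of 2.75 in the Cy5 and 2.37 in the Cy3 orientation. Cyp2c38 was at 1.84, 1.91, 2.24, 3.30 and 2.73 (2.41 ± 0.61, adjusted p = 6.66e-05). These are close relatives in 1 gene cluster, and cross-hybridisation between their probes was not tested. Cyp2c39 was above 0 in 20 of 20 mice, and its knockout minus control difference of 0.98 had an adjusted p of 0.501, as that of Cyp2c38, 1.09, had one of 0.427. Cyp2c23 (1.09 ± 0.18) and Cyp3a16 (1.04 ± 0.32) were also called higher. Cyp2e1, which activates DEN, was at 0.16, -0.06, -0.03, -0.05 and -0.03, with orientation means of 0.36 and -0.34 and no call (adjusted p = 0.987). Cyp7a1, the rate-limiting enzyme of bile acid synthesis, ran from -0.47 to 1.66 and was not called (0.36 ± 0.85, adjusted p = 0.334).

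Genes of the glutathione and antioxidant list, which conjugate and detoxify reactive compounds, were called higher in 15 of 39 and lower in 5, against 10.3% and 15.3% of all probes. The list median was 0.28 (-0.08 in the 5-month controls). At 3 months it was 0.48 in knockouts and 0.52 in controls. No member of this list passed the 5-month knockout minus control difference. The 5 lower include Mt1 and Mt2. Gstt3, a theta class glutathione transferase, was at 1.28 ± 0.19, with all mice between 1.11 and 1.58, and Ephx1, microsomal epoxide hydrolase, at 0.77 ± 0.29. Both were called in each orientation. Gpx2, a glutathione peroxidase of epithelia, went the other way at -0.92 ± 0.16.

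Fatty acid oxidation genes and targets of the fasting receptor PPAR-alpha were called higher in 17 of 33 and lower in 2, against 10.3% and 15.3% of all probes, with a median of 0.38. The list median was 0.45 in the controls, and 7 of its 33 members had a knockout mean above the control mean. Cyp4a14, a fatty acid omega-hydroxylase and a classic PPAR-alpha target, was at 2.44, 2.96, 1.95, 2.01 and 2.23 (2.32 ± 0.41, 4.99-fold, adjusted p = 0.00161). Its controls were at 5.38, 4.96, 2.99, 2.34 and 3.67, overlapping the knockouts only at their lower end, and the difference of -1.55 did not pass (adjusted p = 0.43). Acot1, a cytosolic acyl-CoA thioesterase, was at 2.62, 2.59, 1.86, 1.60 and 1.34, with a control mean of 2.09 and a knockout mean of 2.00. Ehhadh, the peroxisomal bifunctional enzyme, was the tightest of the group at 1.11 ± 0.09. Cyp4a10 was at 1.33 ± 0.69, from 0.23 to 1.91. Acot1 and Ehhadh were called in each orientation.

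Enzymes of amino acid breakdown and the urea cycle were called higher in 15 of 28 and lower in none, against 10.3% and 15.3% of all probes. Their median was 0.42 (0.06 in the 5-month controls). It was higher at 3 months, at 0.70 in knockouts and 0.63 in controls. For no member did the 5-month knockout minus control difference pass. Aass (0.99 ± 0.26), of lysine breakdown, and Tdo2 (0.64 ± 0.16), of tryptophan breakdown, were called in each orientation. The other 2 Aass probes were at -0.15 and -0.07 and were not called. Got1 (0.91 ± 0.36), Hpd (0.80 ± 0.24) and Gnmt (0.72 ± 0.23) were called on the mean, with the Cy3 orientation at 0.19 for Gnmt against 1.19 in Cy5.

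Pericentral hepatocyte genes and Wnt targets, which mark the zone where DEN is activated, were called higher in 6 of 18 and lower in 3 (median 0.25, controls -0.08), against 10.3% and 15.3% of all probes. At 3 months the list median was 0.54 in knockouts and 0.21 in controls. Oat, ornithine aminotransferase, was at 1.76, 1.17, 1.89, 1.45 and 1.67 (1.59 ± 0.28, 3.01-fold, adjusted p = 3.43e-06) and was called in each orientation. The 5 controls ran from -0.08 to 1.07, and the difference of 1.04 had an adjusted p of 0.0789. Glul, the glutamine synthetase of the innermost pericentral cells, was called higher at 0.45 ± 0.13. Lect2, a secreted protein and Wnt target, was at 0.67 ± 0.21 and was called in each orientation. Periportal genes, from the opposite zone, were called higher in 3 of 14 and lower in 2 (median 0.17, controls -0.02), the lower ones including Hsd17b13, a lipid droplet enzyme (-1.17 ± 0.21, called in each orientation).

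Of 31 fatty acid and cholesterol synthesis genes, 8 were called lower and 1 higher, against 15.3% and 10.3% of all probes, with a median of -0.25 in both genotypes. Fasn, fatty acid synthase, was at -1.28, -1.27, -1.40, -1.22 and -1.18, so that the 5 mice lay close together (2.41-fold lower, adjusted p = 0.000109). Its controls averaged -1.54 ± 0.58. Pnpla3, a lipogenic lipase, was at -0.88 ± 0.25 and Sqle, squalene epoxidase, at -0.63 ± 0.29. Fdps, of the mevalonate pathway, was at -0.96 ± 0.20 on its first probe and at -0.05 and -0.42 on its other 2. 

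Sex-biased genes were examined because mice and pool were all male. Of 14 measured genes that female liver expresses more, 8 were called higher and 1 lower (median 0.65, controls 0.26), against 10.3% and 15.3% of all probes. They were Cyp4a14, the sulfotransferase Sult3a1 (1.26 ± 0.66), the peroxisomal oxidase Hao2 (1.00 ± 0.64), Cyp2b13 (0.83 ± 0.73) and 4 other P450 genes. Sult3a1 averaged 0.16 in the Cy5 and 2.54 in the Cy3 orientation, so its size depends on the dye. Of 18 male-biased genes, 1 was called higher and 4 lower (median -0.11). Hsd3b5, the male-specific steroid dehydrogenase, was at -0.83 ± 0.22 against -1.05 ± 0.47 in controls, and Egfr, which male liver expresses more, at -1.08 ± 0.30 against -1.18 ± 0.42. Nudt7, a peroxisomal coenzyme A diphosphatase of the same list, was lower on both of its probes, at -1.06 ± 0.34 and -1.17.

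**Figure D3:**
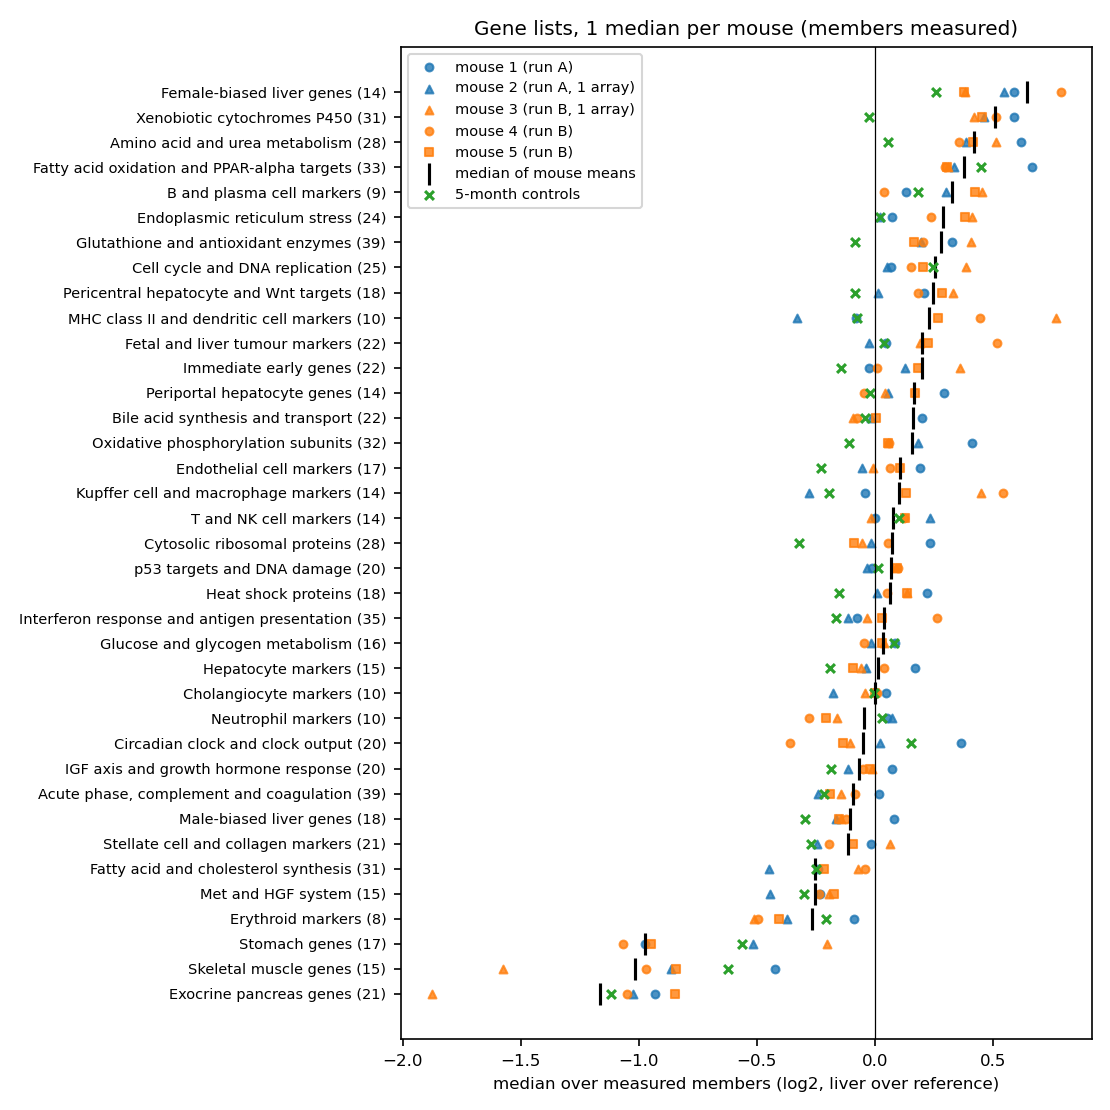
Median log2 ratio of liver over the normal pool over the measured members of each gene list (x axis), for each 5-month knockout mouse (points), for the mean over the 5 mice (ticks) and for the 5-month controls (crosses), with the number of members in brackets. Pancreas, muscle and stomach lists lie near -1, and the P450 list is at 0.51 against -0.03 in the 5-month controls. The 3-month groups are not drawn, and their P450 medians were 0.70 (knockouts) and 0.63 (controls).

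Fetal and liver tumour markers, genes that adult liver silences and tumours can express again, were mixed. Of 22 measured, 6 were called higher and 3 lower, against 10.3% and 15.3% of all probes, with a median of 0.20 (0.04 in controls). H19, an imprinted RNA of fetal liver, was at -0.15, 0.04, 3.09, 3.09 and 2.17. The 2 mice of run A were at the pool's level and the 3 of run B far above it, and every run B mouse exceeded all 5 controls (-0.06 to 1.31). The run difference was 2.84 ± 0.45 (SE, adjusted p = 0.0127). The mean of 1.65 ± 1.60 was called (adjusted p = 0.00389) but was -0.05 in run A alone. Afp, alpha-fetoprotein, was at 0.10, 0.34, 1.11, 2.45 and 0.44 (0.89 ± 0.95, adjusted p = 0.00921), overlapping the controls (0.47 to 0.92), with mouse 4 highest. Scd2, a desaturase of fetal liver, was at 0.33, 0.44, 2.07, 1.79 and 1.32, again higher in run B (difference 1.35, adjusted p = 0.0127). Akr1c18, a progesterone-reducing enzyme, was at 1.26, 0.71, 2.21, 3.09 and 1.93 (1.84 ± 0.91, adjusted p = 3.48e-05), and its run difference of 1.42 did not pass (adjusted p = 0.269). Gpc3, an oncofetal proteoglycan, was not called (0.28 ± 0.67, adjusted p = 0.654), nor was its direction the same in both orientations. Igf2 was called lower, at -0.37 ± 0.25. H19, Scd2 and Akr1c18 were called in each orientation.

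Of 25 cell cycle and DNA replication genes, 4 were called higher and 5 lower (median 0.26, controls 0.24), near the 10.3% and 15.3% of all probes. Mki67, the marker of cycling cells, was at 0.54, 1.41, 0.90, 0.80 and 0.16 and was not called (adjusted p = 0.0798). It averaged -0.11 in the Cy5 and 1.44 in the Cy3 orientation. Plk1 (0.79 ± 0.26), Mcm2 (0.63 ± 0.18) and Mcm7 (0.59 ± 0.19) were called higher, whereas Aurkb (-1.16 ± 0.30), a mitotic kinase, and the helicase subunit Mcm3 (-0.98 ± 0.28) were called lower in each orientation. A second Mcm7 probe was at -0.31. Ccno, a cyclin-fold protein of multiciliated cells, was among the largest rises at 2.62, 1.62, 1.98, 1.59 and 1.92 (1.95 ± 0.41, adjusted p = 1.15e-05). Of 20 p53 targets, 3 were higher, among them Phlda3 (0.60 ± 0.36), and 2 lower, also near those shares. The cell cycle inhibitor Cdkn1a was not called on its first probe (0.34 ± 0.57, adjusted p = 0.354), and its second probe was at 0.85 (adjusted p = 0.035).

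On the first probe of each gene, the Met and HGF list had no member called higher and 5 of 15 lower (median -0.25, controls -0.30), against 10.3% and 15.3% of all probes. Met was at -0.50, -0.80, -1.68, -0.59 and -0.68 in mice 1 to 5, 1.80-fold below the pool on average (-0.85 ± 0.48, adjusted p = 0.000749). The controls, in which Met is intact, were as low, at -1.34, -0.62, -0.87, -0.77 and -0.41, and the difference of -0.05 had an adjusted p of 0.976. The place of the single Met probe relative to the floxed exon is not given in the sources used here, so the probe is no check of the knockout. The other members called lower were Spint1 (-0.82 ± 0.16), an inhibitor of the HGF activator, the adaptors Sos1 (-0.56 ± 0.20) and Grb2 (-0.42 ± 0.16), and the protease St14 (-0.53 ± 0.36). Sos1 alone was called in each orientation. The second Spint1 probe was at -0.27 and was not called. The other 2 St14 probes were at 0.08, not called, and at 1.07, called higher (adjusted p = 0.00435), so the direction of St14 depends on the probe.

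Genes of the endoplasmic reticulum stress list, chaperones and folding enzymes among them, were called higher in 8 of 24 and lower in 1, against 10.3% and 15.3% of all probes. The list median was 0.29 (0.02 in the 5-month controls). At 3 months it was 0.50 in knockouts and 0.58 in controls. Hspa5 (BiP) was at 0.20, 0.24, 1.00, 1.08 and 0.93 (0.69 ± 0.43), the 3 run B mice lying above the 2 of run A. Pdia3, a disulfide isomerase, was at 0.57 ± 0.20 and was called in each orientation, with means of 0.74 in Cy5 and 0.41 in Cy3. Herpud1 was at 0.66 ± 0.45, with mouse 3 at 1.45. Dnajb9 was at 0.61 ± 0.26 on its first probe and at -0.13, not called, on its second. The sensor Atf6 was the 1 called lower, at -0.57 ± 0.34. Insulin-like growth factor binding protein Igfbp1 was at -0.65 ± 0.33, less far below the pool than in the controls (-1.63 ± 0.51), with a difference of 0.98 and an adjusted p of 0.11.

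Clock genes set the time of day of a liver and were counted because the hour of sampling is not given in the sources used here. Per1 was at -1.31, -1.47, -1.44, -0.94 and -1.09, lower in every mouse and in each orientation (-1.25 ± 0.23, adjusted p = 3.93e-07), as in the controls (-1.52 ± 0.07). Arntl was at 0.16, -0.01, 1.66, 1.64 and 1.14, and Per2 at 0.22, -0.06, -1.39, -0.92 and -1.10. Both genes were near 0 in run A and away from 0 in run B, in opposite directions. Cry1 was at 1.57 and 1.54 in run A and at -0.68, 0.91 and 0.48 in run B. None of the 3 run differences passed (adjusted p = 0.355 for Per2, 0.506 for Arntl and 0.455 for Cry1). Of the whole list, 3 of 20 were called higher, Lonrf3 (0.72 ± 0.43) among them, and 2 lower, near the 10.3% and 15.3% of all probes. The second Per2 probe was at -0.34 and was not called.

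Markers of the liver's cell types were mostly near the pool, and the counts in this paragraph stand against 10.3% of all probes called higher and 15.3% lower. Of 15 hepatocyte markers, 3 were called higher and 1 lower (median 0.01), and albumin (Alb) was at -0.04 ± 0.08 with orientation means of 0.33 and -0.38. Foxa2, a hepatocyte transcription factor, was at 1.20 ± 0.40, and Apob, the structural protein of VLDL, at -1.17 ± 0.27, both called in each orientation. A second Foxa2 probe was at 0.47 and was called higher. Kupffer cell and macrophage markers were called higher in 2 of 14, Cd14 (0.65 ± 0.36) and C1qb (0.46 ± 0.35). Their list median was -0.19 in run A and 0.45 in run B, with -0.20 in the controls. Stellate cell and collagen genes were called lower in 6 of 21 and higher in 2, with members from -1.31 to 0.79 (median -0.11, controls -0.27). Among those lower, Col3a1, a fibrillar collagen, was at -1.28, -0.93, -1.75, -1.19 and -1.37, 2.47-fold below the pool (adjusted p = 5.03e-05). Also lower were Col1a2 at -0.65 ± 0.25 and Pdgfrb, a stellate cell receptor, at -0.59 ± 0.25. The second Col3a1 probe was at -1.47. Endothelial markers were 3 higher and 2 lower of 17 (median 0.11, controls -0.23). Those higher were Oit3 (0.37 ± 0.15), Gpr182 (0.35 ± 0.21) and Tek (0.34 ± 0.34), none of them called in each orientation. The 2 lower were the sinusoidal receptors Lyve1 (-0.68 ± 0.31) and Stab2 (-0.62 ± 0.11). T and NK cell markers had 1 of 14 higher, B cell markers 3 of 9 higher and 1 lower, and cholangiocyte markers 1 of 10 lower. Of 10 neutrophil markers, 1 was higher, Cxcr2 (0.60 ± 0.33), and 3 were lower, including S100a9 (-0.83 ± 0.17). Erythroid markers were lower in 3 of 8, with the globin Hbb-b1 at -0.98 ± 0.49. Interferon and antigen presentation genes were 4 higher and 5 lower of 35, close to the shares of all probes (median 0.04, controls -0.16). Those higher included Mx1 (0.50 ± 0.47) and Oasl2 (0.48 ± 0.18), and of the list Oasl2 alone was called in each orientation. Those lower included Ifit3 at -0.63 ± 0.26 (other probes -0.04 and -0.47) and Irf8, a factor of dendritic cells, at -0.74 ± 0.13.

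The remaining lists had calls in smaller numbers, several of them near the 10.3% higher and 15.3% lower of all probes. Oxidative phosphorylation subunits were called higher in 7 of 32 and lower in 2 (median 0.16), cytosolic ribosomal proteins in 5 and 4 of 28 (median 0.07), heat shock proteins in 4 and 2 of 18 (median 0.07), and bile acid genes in 5 and 3 of 22 (median 0.16). Glucose and glycogen genes were higher in 3 and lower in 3 of 16 (median 0.04), IGF axis genes in 2 and 4 of 20 (median -0.07), and MHC class II and dendritic cell markers in 0 and 1 of 10 (median 0.23).

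Several of the large rises rest on few mice or on 1 dye orientation. Tmem179 (1.93 ± 0.57), Htr1b (1.68 ± 0.55) and Hamp2 (1.75 ± 0.70) were above 1 in all 5 mice, and Tmeff2 (1.78 ± 1.00) was at 3.25 in mouse 4 and 1.01 in mouse 5. A second Tmeff2 probe was at 0.81 and was called higher. Olfr893, an olfactory receptor, was at 6.13 in mouse 3 and at 0.05 to 1.30 in the rest. Gdf6 was at 4.27 in mouse 2 and at 0.28 to 1.39 in the rest. Mice 2 and 3 are those with 1 array. Ltbp1 (0.67 in Cy5, 2.53 in Cy3) and Slc7a15 (0.39 and 2.87) differed between orientations, and the other 6 Ltbp1 probes ranged from -0.30 to 0.52. None of these 8 was called in each orientation.

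Whether these livers differ from DEN-treated livers with intact Met was tested as the difference from the 5-month controls. That difference was called for 37 probes (0.101%), 35 higher (0.0956%) and 2 lower (0.00546%) in the knockouts, with 3744 at an unadjusted p under 0.05. All 5 controls have experiment numbers of run A. With array run as a covariate, or with the 2 run A knockouts alone, 0 probes were called by limma (2487 and 2000 at an unadjusted p under 0.05), so none of the calls stood without the 3 run B mice, and run and genotype are partly confounded. Leaving out 1 mouse gave 7 (without control 4) to 90 (without control 3) calls. The counts were 8 without knockout 4 or 5, 12 without knockout 3, 15 without knockout 1, and 14 and 16 without controls 1 and 5. Without the liver-in-Cy5 array of control 4 alone, 49 probes were called, 42 higher and 7 lower.

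Vnn1, pantetheinase, a PPAR-alpha target of hepatocytes, had the largest difference among named genes. The knockouts were at -0.03, -0.19, -1.60, -1.41 and -1.55 and the controls at 2.95, 2.80, 0.77, 1.32 and 1.29. The groups did not overlap, and both run A knockouts were below every control. How many of all probes separate the groups was not counted. The difference was -2.78 ± 0.39 (SE), 6.87-fold lower, with an adjusted p of 0.0109, and it was -1.93 with run as a covariate. Vnn1 was highest in controls 1 and 2, the 2 that were also high for Saa1, Lcn2 and Mt2. Their part in the difference was not tested.

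Among genes higher in the knockouts, 8 were also called against the pool. H2-Bl, a non-classical MHC class I gene, was at 0.99, 0.55, 1.86, 1.36 and 0.92 against -0.29 to 0.06 in the controls, a difference of 1.30 (adjusted p = 0.0109). Other class I genes are close in sequence, so the probe may not be specific. Pebp1, an inhibitor of Raf kinase signalling, was at 1.33, 1.09, 1.34, 1.46 and 1.04 against 0.14 to 0.45, a difference of 0.99 (adjusted p = 0.0198). St7 was at 1.45, 1.04, 0.92, 0.97 and 0.88 against -0.18 to 0.34, a difference of 0.92 (adjusted p = 0.0109). Its other 2 probes gave differences of 0.81 and 0.15. Id3, a dominant-negative partner of E proteins, was at 0.50, 0.00, 1.61, 0.74 and 1.15 against -0.91 to -0.14, a difference of 1.23 (adjusted p = 0.0399). The glyoxalase Glo1 differed by 1.07 (adjusted p = 0.0147), the acetyltransferase-like Nat8f5 by 1.07 (adjusted p = 0.0469), the RNA-binding Zfp36l1 by 1.08 (adjusted p = 0.0469) and Cpeb2 by 1.01 (adjusted p = 0.0487). The other 3 Zfp36l1 probes gave differences of 1.08 (adjusted p = 0.0713), 1.18 (0.0213) and -0.04 (0.953), and the last of them was called lower than the pool (-0.35). A second Cpeb2 probe gave 0.65 (adjusted p = 0.248). For each of these 8 genes the 5 knockouts lay above all 5 controls. They were chosen because this difference passed, and how many of all probes separate the groups was not counted. The differences with run as a covariate were 0.68 (Id3) to 1.26 (Nat8f5). None passed in run A alone. At 3 months, where differences were not tested, the genotypes overlapped for Id3, Zfp36l1, Pebp1, Nat8f5 and Cpeb2. For Id3 the 3-month knockouts were at 0.26 to 0.86 and the 3-month controls at 0.42 to 0.92, all above every 5-month control. For H2-Bl, Glo1 and St7 the 3-month knockouts lay above the 3-month controls.

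The gene lists share genes, and their distinct members were not counted. The 0.101% of all probes that differed between genotypes is therefore not compared with them. Among the list members, 5 differed between genotypes. They were Vnn1, Id3 and Zfp36l1, given above, and Dusp1 and Gbp4, which were chosen after their values were seen. Dusp1, a MAP kinase phosphatase of the immediate early response, differed by 1.42 (adjusted p = 0.0487), from 0.49, 0.93, 1.20, -0.16 and 0.06 in knockouts to -1.28, -0.72, -1.22, -0.81 and -0.57 in controls. Gbp4, an interferon-induced GTPase, differed by 1.40 (adjusted p = 0.011) and was at the pool's level in the knockouts (0.04 ± 0.29). Its 5-month controls were at -1.74 to -1.07, while 3-month controls were at -0.35 to 0.715 and 3-month knockouts at -0.30 to 0.05. Dusp1 also overlapped between genotypes at 3 months, whereas for Vnn1 the 3-month knockouts (-0.73 to -0.06) were below the 3-month controls (0.03 to 0.64). At 5 months, 3 of 22 measured immediate early genes (Id3, Zfp36l1 and Dusp1) were higher in knockouts than in controls, against 0.0956% of all probes. Against the pool, 6 of the 22 were called higher, Id1 (0.76 ± 0.80, mouse 3 at 2.14) among them, and 2 lower, Egr1 (-0.75 ± 0.31) and Ier3 (-0.54 ± 0.35), against 10.3% and 15.3% of all probes. The second probes of Id1 (0.01) and Ier3 (0.06) were not called.

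**Figure D4:**
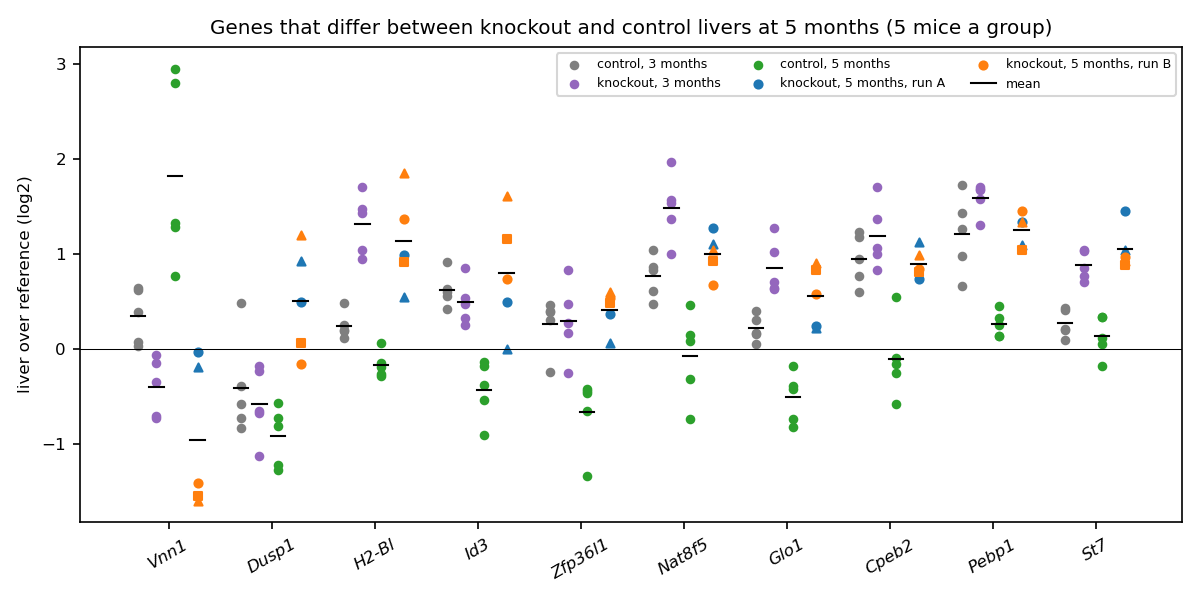
Log2 ratio of liver over the normal pool (y axis) for 10 genes that differ between 5-month knockouts and controls, with a point for each of 5 mice per group and a bar at the mean. Triangles among the 5-month knockouts are mice with 1 array. The 5-month knockouts and controls do not overlap for any of the 10 genes, Vnn1 running from -1.60 to -0.03 against 0.77 to 2.95. The genes were chosen for a difference that passed, so this separation is no further evidence.

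Within the 5 knockouts, mice 1 and 2 (run A) and mice 3, 4 and 5 (run B) differed at 33 probes (0.0901%), 15 higher (0.041%) and 18 lower (0.0492%) in run B. The count was 5 without mouse 2, 9 without mouse 3, 3 without mouse 4 and 11 without mouse 5. The mice of a run share neighbouring experiment numbers, and what else they share is not given in the sources used here. Tubb2a, a beta tubulin, was at -1.24 and -0.78 in run A and at 1.29, 1.99 and 1.57 in run B, a difference of 2.62 (adjusted p = 8.44e-05). The run A controls were at -0.86 to -0.47, on the side of the run A knockouts, and the 3-month knockouts averaged 2.65. Choline kinase Chka (difference 1.52), the tight junction protein Cldn1 (1.71) and lipoprotein lipase Lpl (1.58) had the same arrangement, with the controls near the run A knockouts. Wee1, a mitosis-delaying kinase, was at 1.33 and 1.19 in run A and at -0.81, -0.80 and -0.54 in run B (difference -1.98, adjusted p = 0.00873), with controls at 0.65 to 1.63. Plk3 was at 2.34 and 2.26 in run A, above the controls (-0.05 to 0.93), and at 0.58, -0.24 and 0.30 in run B. Svs6 (difference -2.69), the lipogenic regulator Thrsp (-2.22) and the pseudogene Serpina4-ps1 (-2.42) were also lower in run B. For Wee1, Tubb2a, Chka, Cldn1 and Lpl the mean against the pool was therefore small, between -0.31 and 0.57, and not called.

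**Figure D5:**
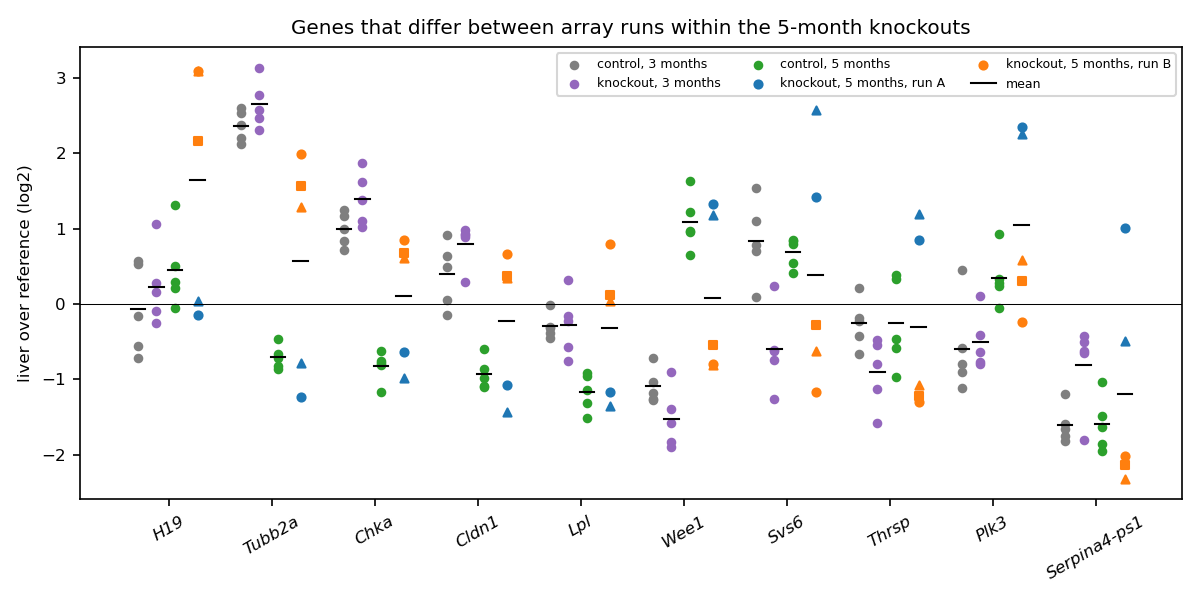
Log2 ratio of liver over the normal pool (y axis) for 10 genes that differ between array runs within the 5-month knockouts, with a point per mouse and a bar at each mean. Run B knockouts of H19 lie at 2.17 to 3.09 and run A knockouts at -0.15 and 0.04, and for Tubb2a, Chka, Cldn1, Lpl and Wee1 the run A knockouts lie with or near the 5-month controls.

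Against knockouts at 3 months, the 5-month knockouts were higher at 932 probes (2.55%) and lower at 1313 (3.59%), a split that turned to 1975 higher and 324 lower without median centring. The total of 2245 fell to 12 without mice 2 and 3, which have 1 array each, to 295 without mouse 2 alone, to 1459 without mouse 3 and to 1403 without mouse 5. The arrays of the 2 ages have separate ranges of experiment numbers, so age and number range cannot be told apart. The genes below the pool at 5 months differed in how low they were at 3 months. Tff2 averaged -3.75 in 3-month knockouts, Saa1 -3.76 and Col3a1 -1.09, and the Tff2 difference of -0.24 did not pass (adjusted p = 0.549). Per1 averaged -0.38 at 3 months against -1.25 at 5 months (adjusted p = 0.00865), Pnpla3 -0.14 against -0.88 (0.0121), Sos1 -0.12 against -0.56 (0.0263) and Grb2 0.26 against -0.42 (0.0173). Hsd3b5 (-0.08 against -0.83, adjusted p = 0.0465), Aurkb (-0.40 against -1.16, 0.0207) and Apob (-0.40 against -1.17, 0.0498) were also lower at 5 months. Fasn averaged -0.53 against -1.27 and did not pass (adjusted p = 0.0799).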

How the data were processed

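Total RNA from snap-frozen livers was hybridised on 2-colour arrays, 8 for the 5-month knockouts. Per the labels and design text, the authors scanned with a GenePix 4000A, dropped invalid features and scaled arrays to the median signal in mAdb. The deposited values are log2 ratios for 36607 probes, none missing. Background handling, spot averaging, numerator dye and log base: not given in the sources used here. Base 2 and Cy5 over Cy3 were taken. Deposited medians were -0.10 to -0.05 with liver in Cy5 and -0.22 to -0.16 with liver in Cy3. Signals are not in these values, so no dim-probe filter was set, and the number of arrays limits precision.

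Arrays were centred on their medians, and those with liver in Cy3 were turned. The mean of both orientations after turning gave 1 value per mouse. For mice 2 and 3, a probe dye effect from the 8 five-month mice with both orientations was removed. Values were fitted with limma 3.58.1 in R 4.3.3 (lmFit, eBayes), group means over all 20 mice, with Benjamini-Hochberg adjustment over all probes. On simulated data the steps were tested before use. Within the knockouts the array runs, and between groups the differences, came from the same kind of fit. Alternatives covered centring, quantile normalisation, dye effect, orientation, run, replicate block and each mouse left out.

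Probes with 1 gene symbol in the platform annotation number 26926, with several 203, and 9478 are unnamed. Each gene is represented by its first such probe. Named genes are the 15 largest rises and falls with 5 mice on 1 side, up to 5 called members per list, 13 genes chosen by name, up to 8 per direction that also differ from controls, and up to 5 per direction between runs. Genes outside this rule are said to be so. Members and lists were chosen with earlier results of these data known.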

Additional observations from a re-analysis of the deposited data

Results flagged for a closer look

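Among 127 of the genes named in the text, 12 had 1 of the 5 knockout mice far from the others by Dixon's criterion, which chance meets in about 1 in 20 groups. In 9 of the 12 the mouse was mouse 3, which has a single array: Try4 at -2.58, Hamp2 at 2.96, Olfr893 at 6.13, Met at -1.68, Lcn2 at -3.14, Saa3 at -4.08, Herpud1 at 1.45, Id1 at 2.14 and Ier3 at -1.16. The part of the single array in these values was not tested. Gdf6 was at 4.27 in mouse 2, which also has a single array. Mouse 1, with both orientations, stood apart for Cyp2e1 (0.16) and St7 (1.45).

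The change from the pool differed between 5-month knockouts and controls, tested as the difference itself with limma, for 11 named genes. It was -2.78 for Vnn1, 1.42 for Dusp1, 1.40 for Gbp4, 1.30 for H2-Bl, 1.23 for Id3, 1.08 for Zfp36l1, 1.07 for Nat8f5, 1.07 for Glo1, 1.01 for Cpeb2, 0.99 for Pebp1 and 0.92 for St7. All 11 kept their sign under every alternative run, and none passed with array run as a covariate.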

How the results depend on the processing

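The spread between normal livers is unknown, since 1 pool served every array. The numerator dye is unstated, signals behind the ratios are not in the values, and run, age and genotype overlap. Against the 9366 probes called, the count was 3010 with only the mice that have both orientations, 2443 in run A alone, 4175 in run B alone, 2376 in the liver-in-Cy5 arrays alone (1550 higher and 826 lower), 1619 with both orientation means at least 0.5, 597 at a size of at least 1, and 736 with calls in each orientation alone. Leaving out 1 mouse gave 6685 to 7843. It stayed within 1.5 times of the original with the values as deposited, quantile normalisation, the dye effect from 18 mice, the 10 mice of 5 months or the 5 knockouts alone, run weighted equally, the liver-in-Cy3 arrays, the replicate block and no requirement on orientations. The difference from controls (37) became 687 with quantile normalisation, 22 with both-orientation mice, 6 with the 10 mice of 5 months alone, 0 with run as a covariate, 0 with run A knockouts, 87 with run B knockouts, 0 in the liver-in-Cy5 arrays (4327 at an unadjusted limma p under 0.05) and 0 in the liver-in-Cy3 arrays (2466), and 193 by the methods' t-test at its threshold, without its random variance model, and 3 after Benjamini-Hochberg. Leaving out 1 mouse gave 7 to 90. Replicate numbers are shared by different animals, and same-numbered deviations correlated at -0.28 to 0.10, so they do not pair the mice. With the replicate block the count was 7. Run B minus run A (33) gave 5 with both-orientation mice and 3 to 34 without 1 mouse, where a lone run A mouse is assumed to vary like the others. The age difference (2245) gave 12 with both-orientation mice and 295 to 1595 without 1 knockout. The causes of these shifts were not tested.

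Of the settings run for those 127 named genes against the pool, 2008 kept direction and call, 229 lost the call, 20 gained it, 9 moved and 49 changed sign. Of list medians under their alternatives, 317 stayed within the spread and 16 moved. Sign changes came in run A alone for H19 (-0.0540), Cdkn1a (-0.14), Alb (0.00584), Tubb2a (-1.01), Chka (-0.81), Thrsp (1.02), Serpina4-ps1 (0.26), Per2 (0.0804) and Cyp2e1 (0.0514), and in run B alone for Cyp7a1 (-0.20), Svs6 (-0.69), Wee1 (-0.72), Cldn1 (0.46), Lpl (0.32) and Gbp4 (-0.0604). In the liver-in-Cy5 arrays they came for Gpc3 (-0.27), Mki67 (-0.11), Alb (0.33), Cyp2e1 (0.36), Svs6 (-1.36), Wee1 (-0.14), Cldn1 (0.10), Lpl (0.23) and Gbp4 (-0.23), and in the liver-in-Cy3 arrays for Chka (-0.24). With only both-orientation mice they came for Cyp2e1 (0.0272), Svs6 (-0.00967) and Wee1 (-0.002), with quantile normalisation for Cyp2e1 (0.0479), Wee1 (-0.0497) and Gbp4 (-0.0379), with values as deposited for Cyp2e1 (0.0634) and Alb (0.0271), with the mean of a gene's probes for St14 (0.21), and with runs weighted equally for Cyp2e1 (0.00666) and Chka (-0.0484). Leaving out 1 mouse moved Cyp2e1 between -0.0435 and 0.0120, Svs6 between -0.16 and 0.77, Chka between -0.0832 and 0.37, Wee1 between -0.24 and 0.29, Cldn1 between -0.45 and 0.0757 and Gbp4 between -0.038 and 0.12. Of these genes H19, Serpina4-ps1, Per2 and St14 had been called against the pool.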
